A study of Mus musculus with 3 samples.

Results

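The comparison covered arterial endothelial cells from pools of fresh cells and cells of an aggregate culture. In 70 of them transcripts of the transcription factor gene Runx1 stood above a set limit, and in 632 of the same cluster none was counted. The cells came from a table of 9562 mouse cells whose transcripts had been counted as unique molecular identifiers (UMIs), and all belonged to cluster 0 of the deposited cell annotation, which held 728 cells. Cells with fewer than 5000 UMIs were left out, which removed 6 cells. Of the remaining 722 cells, a cell was called Runx1-positive above 0.5 Runx1 UMIs per 10000 of its UMIs and Runx1-negative at 0 Runx1 UMIs, and 20 cells with a value between these limits entered neither group. The cells were chosen by their measured Runx1 UMIs, so Runx1 levels are given as a description, and Runx1 was left out of every test.

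The starting cells were adult mouse cardiac endothelium, sorted as CD31+VE-Cad+ cells without CD41, CD45, PDGFRA or PDGFRB. They were sampled fresh or after aggregate culture with Mesp1-derived PDGFRA+ stromal cells (Mesp1-der PSCs) of the aorta-gonad-mesonephros region of E11.5 embryos, and after culture CD31+VE-Cad+PDGFRA- cells were collected. The culture medium of all aggregates contained serum and the blood cytokines IL-3, SCF and Flt3L, so no group was cultured without cytokines. Fresh cells (0 h) and cells of 24, 48, 72 and 96 h of culture were pooled before capture, in 3 pools. The time and the pool of a single cell are not marked in the table. A difference by Runx1 therefore cannot be told apart from one between fresh and cultured cells or between culture times. The suffix 1, 2 or 3 of a barcode marks its library, both groups were found in every library, and each library gave 1 summed Runx1-positive and 1 summed Runx1-negative profile. The study describes the single-cell data as biological triplicates. Because the suffixes are tied to no pool, p-values measure only the spread between these 3 libraries. That each suffix is 1 of the pools is not marked on the cells.

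Runx1 encodes the DNA-binding partner of CBFB and is required for endothelial cells of the embryonic aorta to give rise to blood, a process called the endothelial-to-haematopoietic transition. In that process haemogenic endothelial cells switch on Runx1, its target Gfi1 represses endothelial genes, and factors such as Spi1 (PU.1), Myb and Hlf and the receptor Kit mark the cells that become blood progenitors and stem cells. Arterial identity, with its connexins, Sox17 and Notch signalling, precedes the transition and is lost as blood forms.

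The arterial label was checked first. Summed over cluster 0, the connexin gene Gja5 was at 5.09 UMIs per 10000, against 0.228 in cluster 1 and 0.0599 in cluster 2, and Gja4 was at 13.9 against 1.05 and 0.905. Of the 7 arterial markers set for this check, Gja5, Gja4, Sox17, Hey1, Efnb2 and Bmx were highest in cluster 0 of the 3 clusters, and Dll4 was not, at 1.71 against 2.05 in cluster 1. Other genes of the arterial list were also higher in cluster 1, with Cxcr4 at 1.08 against 0.496 in cluster 0, Mgp at 1.51 against 0.345 and Cxcl12 at 2.14 against 0.269. Endocardial markers summed to 17.7, 3.29 and 11.7 in clusters 0, 1 and 2. Most of each sum was Plvap, also on the pan-endothelial list, at 13.1, 2.26 and 7.36. Another, Npr3, was at 2.65 in cluster 0 against 0.181 and 0.269. The label thus holds for connexins and not for every arterial gene. The genes of heart capillaries were low in cluster 0, with Fabp4 at 0.952 against 65.0 in cluster 1 and Cd36 at 0.114 against 4.04. Transcripts of Y-linked genes without Xist were found in 27 of the 70 positive and 285 of the 632 negative cells, and Xist without Y-linked genes in 36 and 231, although the methods describe female hearts. Whether the cells with Y-linked transcripts came from the heart endothelium, the embryonic stroma or another source was not tested. The libraries held between 72496908 and 92498954 UMIs over all cells, 13 barcodes were shared between libraries but none among the 702 compared cells, and mitochondrial transcripts made up 3.22 to 4.12% of the UMIs of the positive sums and 3.86 to 4.40% of the negative sums. The positive cells were deeper, with a median of 20202.5 UMIs and 4901 genes per cell against 13523.5 UMIs and 4084 genes.

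Runx1-positive cells made up 9.70% of cluster 0 (95% exact binomial interval 7.64 to 12.1%, counting error only, as for all intervals and floors given here). The share was 10.3% in library 1 (28 cells), 9.86% in library 2 (28 cells) and 8.43% in library 3 (14 cells). A positive cell held between 1 and 20 Runx1 UMIs with a median of 4, and 13 cells were positive on 1 UMI. Per 10000 UMIs the cells ranged from 0.536 to 7.96 with a median of 2.31, and the summed levels were 2.33, 2.84 and 2.02 in libraries 1, 2 and 3. The lowest positive cells had 0.536 and 0.564 and the highest cells below the limit had 0.481 and 0.481, with 9 cells between 0.4 and 0.6. The 20 intermediate cells were the deepest, with a median of 33067.5 UMIs. A cell with no Runx1 UMI may still have held the transcript below detection, more often where it was shallow.

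Of 10130 genes tested, 1269 were higher in Runx1-positive cells, which is 12.5%, and 1304 were lower, which is 12.9%, so that 25.4% were called in either direction (edgeR quasi-likelihood test with library as a block, adjusted p below 0.05). The median log2 ratio over all tested genes was -0.0044. At least 2-fold differences were found for 276 of the higher and 580 of the lower genes. Without regard to the test, 16.2% of the genes had all 3 positive sums above all 3 negative sums and 20.6% had them below. A gene was tested from 50 UMIs over both groups, and 269 genes, 39 of them called higher, reached this number only with the UMIs of the positive cells. Every level below is in UMIs per 10000 UMIs of a summed profile, given for libraries 1, 2 and 3, and every ratio is a fitted log2 ratio of positive to negative cells with its SE. Levels are compared between groups and not between genes.

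Among the haemogenic transcription factors, Gfi1, Spi1, Hlf and Myb stood furthest apart. All of them reached the limit of 50 UMIs only with the positive cells, in which they are high, so their ratios are given as a description and with no p. Gfi1 (ENSMUSG00000029275, GRCm38 chr5:107716657-107726036, minus strand), a repressor downstream of Runx1, was at 1.31, 0.891 and 0.963 in positive cells and at 0.0220, 0.00626 and 0.0290 in negative cells. The groups did not overlap, the pooled levels differed 55.1-fold and the log2 ratio was 5.77 ± 0.30 (n = 3 libraries), with 170 Gfi1 UMIs in the 70 positive and 20 in the 632 negative cells. Spi1 (ENSMUSG00000002111, GRCm38 chr2:91082390-91115756, plus strand), which encodes the myeloid and stem cell factor PU.1, was at 0.714, 0.836 and 0.470 against 0.0165, 0.0438 and 0.0841. Its groups did not overlap either, and the ratio was 3.88 ± 0.33 on 109 and 49 UMIs. Hlf (ENSMUSG00000003949, GRCm38 chr11:90336536-90390895, minus strand), a bZIP factor of haematopoietic stem cells, was at 0.698, 0.334 and 0.403 against 0.0330, 0.0563 and 0.0116, a ratio of 3.85 ± 0.37 on 78 and 34 UMIs. Myb, which is needed for definitive haematopoiesis, was at 0.249, 0.539 and 0.179 against 0.00275, 0.0376 and 0.00870, a ratio of 4.36 ± 0.45 on 52 and 16 UMIs. When every gene with at least 1 UMI was tested, 16143 in all, edgeR called these 4 genes higher too. Ikzf2, of the Ikaros family, reached the limit on the negative cells alone and rose by 2.58 ± 0.16, from 0.187, 0.285 and 0.165 to 1.08, 1.82 and 0.896 (edgeR, adjusted p = 4.0e-15).

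**Figure D1:**
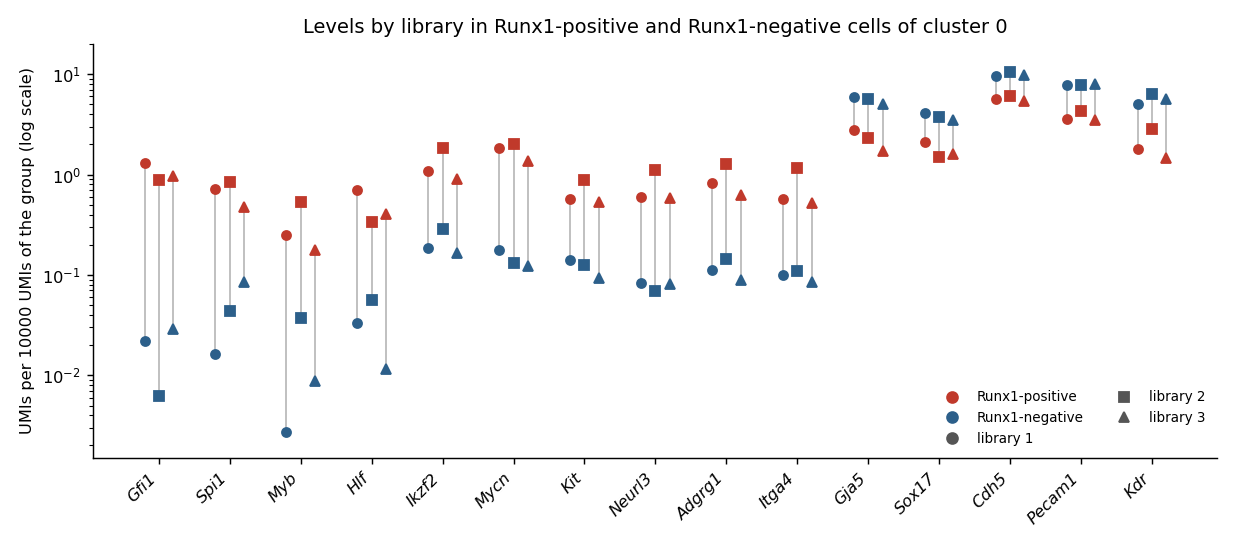
Levels of 15 genes in UMIs per 10000 on a log axis, with 1 point per library and group (red, Runx1-positive, blue, Runx1-negative, circle, square and triangle for libraries 1, 2 and 3) and a grey line joining the groups of a library. From Gfi1 to Itga4 every red point lies above every blue point, with Gfi1 at 0.891 to 1.31 against 0.00626 to 0.0290, and from Gja5 to Kdr every red point lies below every blue point, with Gja5 at 1.72 to 2.79 against 5.06 to 5.97.

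The list of haemogenic factors held 28 genes, of which 23 were tested, 12 were higher, 4 were lower and the median log2 ratio was 0.52 against -0.0044 over all genes. For 5 of the 23, Gfi1, Spi1, Myb, Hlf and Runx1t1 (2.07 ± 0.43), the test was reached only with the positive cells. Neither this count nor the median is therefore evidence of a direction. The other higher members had smaller ratios. Meis1, a HOX cofactor, was at 0.897, 1.17 and 0.985 against 0.374, 0.407 and 0.397 (1.39 ± 0.15), and Tal1, which starts the blood programme, was at 0.714, 0.873 and 0.963 against 0.310, 0.532 and 0.409 (1.05 ± 0.17). Bcl11a rose by 1.27, Hhex by 0.83, Mllt3 by 0.65 and Zfpm1 by 0.52. The lower members were Sox17 (-1.10), Lmo2 (-0.80), Gata3 (-0.60) and Mecom (-0.43). Gata2, which acts upstream of Runx1, did not pass the test, at 0.997, 1.23 and 0.784 against 0.742, 0.895 and 0.766 (0.35 ± 0.14, edgeR adjusted p = 0.068). Lyl1, Fli1, Erg, Etv6, Cbfb and Cbfa2t3 were not called. The calls of 2 members were lost with a library left out. Zfpm1 had an adjusted p of 0.091 in edgeR without library 2, and Gata3 lost its call whichever library was left out (edgeR adjusted p 0.061 to 0.11).

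Of the 29 surface and signalling genes of emerging blood, 16 were tested, 10 were higher and 1 was lower, with a median of 1.09, and 2 of the 16 reached the test only with the positive cells. Kit (ENSMUSG00000005672, GRCm38 chr5:75574916-75656722, plus strand), the receptor for stem cell factor, was at 0.565, 0.891 and 0.537 in positive cells and 0.140, 0.125 and 0.0928 in negative cells. The groups did not overlap, and the ratio was 2.47 ± 0.24 (edgeR, adjusted p = 3.0e-10), or 5.58-fold in the pooled levels. The ubiquitin ligase gene Neurl3, a marker of haemogenic endothelium, was at 0.598, 1.11 and 0.582 against 0.0824, 0.0689 and 0.0812 (3.28 ± 0.26). The adhesion G protein-coupled receptor gene Adgrg1 (Gpr56) was at 0.831, 1.26 and 0.627 against 0.113, 0.144 and 0.0899 (2.97 ± 0.21). For both genes the groups lay apart in every library. Over all cells of cluster 1, however, Neurl3 was at 0.958, above its pooled 0.769 in the positive cells. Adgrg1 was at 0.661 there against 0.920.

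Itga4, the alpha 4 integrin, was at 0.565, 1.15 and 0.515 against 0.0989, 0.110 and 0.0841 (2.90 ± 0.25), and Itgb3 was at 0.415, 0.557 and 0.381 against 0.0467, 0.0689 and 0.0406 (3.13 ± 0.31). Was, the Wiskott-Aldrich actin regulator of blood cells, was at 0.365, 0.316 and 0.358 against 0.0220, 0.0344 and 0.0348 (3.53 ± 0.37 as a description, since its 31 UMIs in negative cells alone would not have reached the test). Coro1a, another actin regulator of leukocytes, rose by 2.33 ± 0.24, Procr by 1.04, Cd44 by 0.84 and Laptm5 by 0.57, the last with an edgeR adjusted p of 0.055 without library 2. Over all cells of cluster 1 Itgb3 was at 0.502 and Procr at 2.23, against pooled 0.454 and 2.09 in the positive cells. Itga4, Was, Coro1a, Cd44 and Laptm5 were lower in cluster 1 than in the positive cells. Cd34, which endothelium and blood progenitors share, fell to 5.599, 6.26 and 5.06 from 11.6, 11.48 and 11.3 (-0.999 ± 0.07). Itga2b (CD41) was at 0.166, 0.0371 and 0.179 against 0.0439, 0.0814 and 0.0522, which overlapped (1.13 ± 0.49, edgeR adjusted p = 0.085). Ptprc, the gene of the pan-leukocyte protein CD45, had 3 UMIs in the positive and 14 in the negative cells and was too rare to test. CD41 and CD45 protein had been excluded when the starting cells were sorted.

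Detection in single cells showed the same genes side by side. Gfi1 UMIs were found in 62.9% of positive cells (44 of 70) and 1.58% of negative cells (10 of 632), Spi1 in 44.3 and 3.32%, Kit in 58.6 and 13.9%, and Hlf in 42.9 and 3.64%. After each cell of these groups was thinned to 5000 UMIs the shares were 30.0 and 0.633% for Gfi1, 22.9 and 1.90% for Spi1, 30.0 and 6.17% for Kit and 15.7 and 1.11% for Hlf. The order of the groups was the same at equal depth. In clusters 3 and 4, thinned alike, the shares were 0 and 0.195% for Gfi1, 4.60 and 1.37% for Spi1, 30.1 and 3.52% for Kit and 0.837 and 1.37% for Hlf, so that Kit was as frequent in cluster 3 as in the positive cells. Shares were not taken in the endothelial clusters 1 and 2. In summed levels cluster 1 had Kit at 1.11, above the pooled 0.668 of the positive cells. Spi1, Gfi1 and Hlf were at 0.370, 0.00832 and 0.0357 there against 0.687, 1.07 and 0.491. In cluster 2 all 4 were lower than in the positive cells. At least 1 of these 4 genes was detected in 59 positive cells (84.3%) and 128 negative cells (20.3%). At least 2 were detected in 45 positive cells (64.3%) and 12 negative cells (1.90%), and all 4 in 11 positive and 0 negative cells. These counts were not thinned, and the deeper positive cells had more chances of detection.

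A RUNX recognition motif was looked for in the start-site windows of the 15 genes leading the higher direction, because these genes move with the gene of a factor that reads it. The letters searched were TGTGGT and TGCGGT on either strand (ACCACA and ACCGCA on the other). RefSeq windows of GRCm38.p6, 250 bases before to 50 after a gene's start, were held for 12 of the 15 genes, and 2 of the 12 (16.7%), Itga4 and Syce2, held the motif in a window, against 22.4% of all 32851 windows. These shares are unlike measures, since a gene counted with a match in any of its windows and the background counted single windows. With 12 genes they decide nothing about how often leading genes hold the motif. The windows of Itga4 (chr2:79255176-79255475, plus strand) and Was (chrX:8090442-8090741, minus strand) are printed 5′ to 3′ with the motif in capitals, as windows of an integrin and an actin regulator gene described above. Was is not among the 15 and was chosen after its window was seen. A match is a run of letters and not evidence of binding.
Itga4: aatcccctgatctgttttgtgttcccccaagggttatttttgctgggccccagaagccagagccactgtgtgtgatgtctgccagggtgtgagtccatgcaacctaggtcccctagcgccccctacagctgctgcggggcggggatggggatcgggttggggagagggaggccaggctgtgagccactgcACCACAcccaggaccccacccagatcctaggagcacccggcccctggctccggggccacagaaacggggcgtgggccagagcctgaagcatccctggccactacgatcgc
Was: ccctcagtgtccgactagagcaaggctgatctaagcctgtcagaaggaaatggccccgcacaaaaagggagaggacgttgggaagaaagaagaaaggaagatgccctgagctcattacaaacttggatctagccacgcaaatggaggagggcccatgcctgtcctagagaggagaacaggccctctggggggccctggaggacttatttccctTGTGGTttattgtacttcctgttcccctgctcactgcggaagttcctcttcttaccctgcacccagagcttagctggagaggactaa

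The other genes leading the higher direction came from several processes. Sfrp2, a secreted modulator of WNT signalling, was at 1.21, 1.34 and 1.30 against 0.0577, 0.0344 and 0.0783 (4.51 ± 0.22, edgeR adjusted p = 4.6e-18). Mycn, a MYC family factor, was at 1.83, 2.02 and 1.37 against 0.176, 0.131 and 0.122 (3.61 ± 0.16, edgeR adjusted p = 1.9e-19). Phgdh, the first enzyme of serine synthesis, was at 0.930, 1.37 and 1.37 against 0.0906, 0.178 and 0.0754 (3.44 ± 0.21). In none of these genes did the groups overlap. The stress-induced Nupr1 rose by 3.83 ± 0.30, and Cebpb, a bZIP factor of myeloid cells, was at 1.30, 1.67 and 0.828 against 0.146, 0.153 and 0.0899 (3.29 ± 0.18). Over all cells of cluster 1 Cebpb was at 4.25, above its pooled 1.29 in the positive cells, and the other genes of this paragraph were lower there. Gsta4, a glutathione transferase gene, rose by 2.11 ± 0.13, and Syce2, known as a gene of the meiotic synaptonemal complex, rose by 1.87 ± 0.24.

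**Figure D2:**
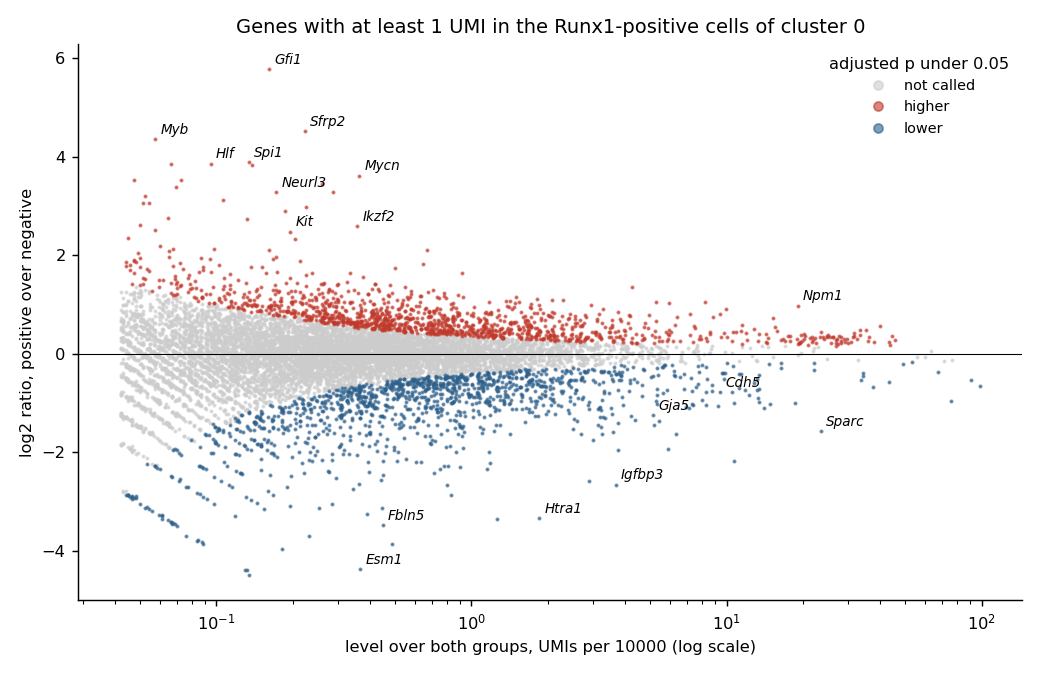
Fitted log2 ratio of positive to negative cells (vertical axis) against the level over both groups in UMIs per 10000 (horizontal log axis) for each tested gene with at least 1 UMI in the positive cells, with genes called higher in red, lower in blue and not called in grey. Gfi1 at 5.77 and Sfrp2 at 4.51 lie at the top, the lower genes include Fbln5 at -3.48 and Esm1 at -4.38, and the well-expressed Npm1 and Sparc lie at 0.98 and -1.57.

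The arterial programme was lower throughout. Of 23 arterial genes 22 were tested, all 22 were lower, and the median log2 ratio was -1.04 against -0.0044 over all genes. Gja5 (connexin 40) was at 2.79, 2.34 and 1.72 in positive cells and 5.97, 5.61 and 5.06 in negative cells (-1.25). Gja4 (connexin 37) was at 6.88, 6.35 and 7.41 against 16.4, 14.0 and 14.5 (-1.10 ± 0.07). Positive cells thus kept transcripts of both connexins at less than the level of their neighbours, and Gja5 was still detected in 82.9% of them against 92.9% of negative cells. Sox17, a driver of arterial identity, was at 2.09, 1.504 and 1.59 against 4.10, 3.73 and 3.48. The Notch ligand gene Dll4 fell by 1.18 on the log2 scale, Notch1 by 0.93, Notch4 by 1.66, and the Notch effectors Hey1 and Hey2 by 0.87 and 0.998. Cxcl12 and its receptor gene Cxcr4 were also lower, Cxcl12 at 0.0498, 0.0557 and 0 against 0.401, 0.241 and 0.308 (-3.04 ± 0.44) and Cxcr4 at 0.166, 0.111 and 0.134 against 0.670, 0.432 and 0.586 (-2.0 ± 0.25). Mgp, an inhibitor of calcification in arterial walls, fell by 2.64, and the smallest ratio was that of Vegfc (-0.53). Depth was handled in 3 ways, of which the last narrowed its range and did not make it alike. Each cell was thinned to 5000 UMIs with the groups kept (chosen after seeing the data), or thinned and grouped again by the Runx1 UMIs left, which gave 20, 20 and 9 positive and 252, 264 and 157 negative cells in libraries 1, 2 and 3, or cells were limited to 5000 to 20000 UMIs, which left 35 positive cells. All 22 arterial ratios stayed below 0 in each, with 18, 12 and 5 genes called. Under the last, positive and negative medians were 14155.5 and 12744 UMIs in library 1, 12099 and 10133.5 in library 2, and 6902 and 14309 in library 3.

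Pan-endothelial genes were lower too, and none was lost. All 23 genes of the list were tested and all were lower, with a median of -0.89. Their summed level was 71.3 in positive and 133 in negative cells, beside 105 over cluster 1 and 74.2 over cluster 2. The positive cells thus stood near the level of endothelial cluster 2. Cdh5, the gene of the junction protein VE-cadherin that was used to sort the cells, was at 5.65, 6.07 and 5.42 against 9.58, 10.5 and 9.81 (-0.78) and was detected in 100% of positive and 99.4% of negative cells. Pecam1 (CD31) was at 3.54, 4.25 and 3.52 against 7.78, 7.82 and 8.05 (-1.04). The VEGF receptor genes were lower as well, Kdr at 1.81, 2.86 and 1.48 against 5.06, 6.33 and 5.70 (-1.45 ± 0.10) and Flt1 at 1.59, 2.17 and 1.75 against 4.19, 5.27 and 4.89 (-1.35 ± 0.10). Eng fell by 0.94, Tie1 by 1.04, Tek by 0.82, and Egfl7 (-0.40) and Nos3 (-0.42) moved least. Nos3 lost its call without library 2 (edgeR adjusted p = 0.43) and without library 3 (edgeR adjusted p = 0.067). Thinned with the groups kept, all 23 were below 0 and 18 were called, and thinned and regrouped all 23 were below 0 and 17 were called. Within cells of 5000 to 20000 UMIs, where library 3 had 3 positive cells, all 23 were below 0 and edgeR called 0 (15 at an unadjusted p below 0.05).

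**Figure D3:**
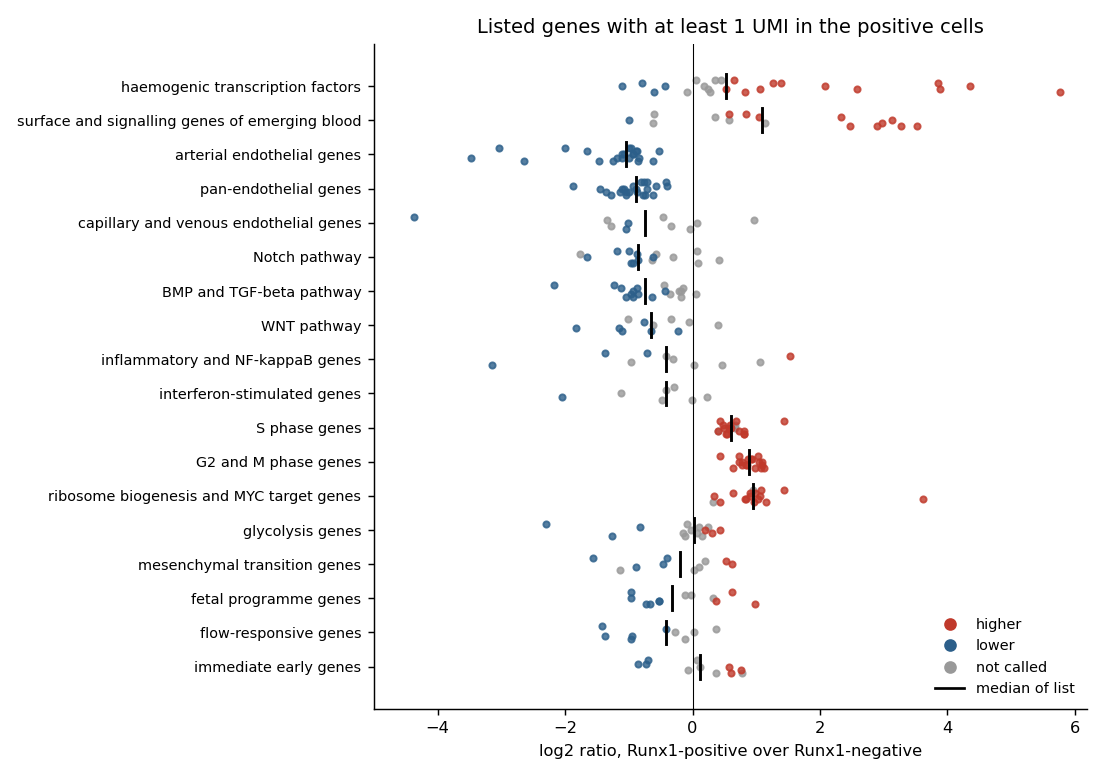
Fitted log2 ratios of the tested genes of 18 lists, 1 dot per gene with at least 1 UMI in the positive cells (red higher, blue lower, grey not called) and a black bar at the median over all tested genes of the list. All dots of the arterial and pan-endothelial lists lie below 0 (medians -1.04 and -0.89), those of the S phase, G2 and M phase and ribosome lists lie above 0 (medians 0.60, 0.89 and 0.95), and the haemogenic factors spread from -1.10 to 5.77.

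The 15 genes leading the lower direction had several roles. P4ha3, a collagen prolyl hydroxylase gene, was at 0.0665, 0.0371 and 0 against 0.508, 0.739 and 0.426 (-3.86 ± 0.37), and Fbln5, a gene for assembly of elastic fibres, at 0, 0.0929 and 0.0448 against 0.511, 0.485 and 0.525 (-3.48 ± 0.38). The secreted protease gene Htra1 was at 0.150, 0.316 and 0.134 against 1.93, 2.10 and 2.22, and Igfbp3, which binds insulin-like growth factors, at 0.714, 0.669 and 0.515 against 4.86, 3.59 and 3.82. Both were far below the negative cells in every library (-3.34 and -2.66). Depp1, a FOXO target, fell by 3.34, Cdc42ep3, an effector of the GTPase CDC42, by 3.13, Sparcl1, a matrix glycoprotein gene, by 2.59, Ltbp4, which anchors latent TGF-beta, by 2.34 and Plpp3, a lipid phosphatase gene, by 2.29. Apbb2 (-2.87), Tmem255a (-2.67), Egfl8 (-2.47), Tbxa2r, the thromboxane receptor gene (-2.42), Pde8a, a cyclic AMP phosphodiesterase gene (-2.35), and Mall (-2.29) completed the 15. Of the lower genes, 12 had no UMI in the positive cells. Among them the cytokine gene Csf3 was at least 5.61-fold lower, with 3 UMIs over the positive group as the floor, but its negative cells were at 0.00824, 0.332 and 0, so that library 2 alone carried the difference.

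Listed genes of vessel-wall signalling pathways were lower or not called. Of 15 tested Notch genes, 8 were lower and the rest not called, with a median of -0.85, and the target Hes1 was not called (-0.31 ± 0.23). Notch1, Notch4, Dll4, Jag1, Jag2, Hey1 and Hey2 are also on the arterial list, so these lower calls were already counted there. Sox17 of the WNT list, Eng of the BMP list and Nos3 of the flow list are likewise shared with the endothelial lists. Of 18 BMP and TGF-beta genes, 11 were lower and the rest not called (median -0.75). Tgfb2, a ligand, was at 0.0332, 0.186 and 0.112 against 0.456, 0.504 and 0.537 (-2.18 ± 0.30), Smad7, an inhibitor, at 0.947, 1.08 and 0.851 against 2.11, 2.51 and 2.25 (-1.23 ± 0.12), and Acvrl1, the endothelial receptor ALK1, at 0.781, 0.799 and 0.694 against 1.71, 1.56 and 1.82 (-1.12 ± 0.14). Ligand, receptor and inhibitor were thus lower together. Of 11 WNT genes 6 were lower (median -0.65), and of 9 flow-responsive genes 5 were lower (median -0.42), among them the shear-stress factors Klf2 (3.85, 2.67 and 1.99 against 5.63, 5.86 and 5.45) and Klf4 (-1.37 ± 0.21). Within cells of 5000 to 20000 UMIs edgeR called 1 Notch, 2 BMP and TGF-beta, 0 WNT and 1 flow-responsive genes lower. These counts were 3, 6, 1 and 2 after thinning and regrouping and 7, 8, 1 and 2 after thinning with the groups kept. DESeq2 at the deposited depth called 6, 9, 1 and 3. The list medians stayed below 0 in each of these settings. Of 10 tested capillary and venous genes 3 were lower, Esm1 (-4.38 ± 0.47), Vwf (-1.02 ± 0.09) and Gpihbp1, which lost its call without library 1 or 3 (edgeR adjusted p 0.88 and 0.079). Over all tested genes 12.9% were lower, and this count of 3 among 10 moved with the libraries. Without library 2, 7 of the 10 were lower. Without library 1, 2 were lower and 1 was higher, and without library 3, 2 were lower.

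Genes of ribosome production rose. Of 17 ribosome biogenesis and MYC target genes 15 were higher and 2 not called, with a median of 0.95. The nucleolar genes Npm1, at 32.3, 32.9 and 32.5 against 16.6, 17.6 and 16.2 (0.98 ± 0.06), and Ncl, at 13.5, 15.6 and 15.1 against 6.196, 8.38 and 7.12 (1.06 ± 0.07), rose about alike. Mycn is a member, and Myc itself did not pass (0.32 ± 0.36, edgeR adjusted p = 0.58). The list's summed level was 82.4 to 84.4 in positive and 45.7 to 49.6 in negative cells, beside 52.9 over cluster 1 and 98.5 over cluster 2. The median was 1.02 with 12 calls among 16 genes after thinning with the groups kept, 0.96 with 8 calls after thinning and regrouping and 0.81 with 4 calls within cells of 5000 to 20000 UMIs.

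Cell cycle genes rose as well, and their calls varied with depth. Of 18 S phase genes 15 were higher and 3 not called (median 0.60), and of 18 G2 and M phase genes all 18 were higher (median 0.89). Mki67 was at 2.08, 3.45 and 2.19 against 1.12, 1.77 and 0.844 (1.07 ± 0.11), and Top2a at 3.29, 4.96 and 4.32 against 2.10, 2.06 and 1.79 (1.08 ± 0.10). The summed G2 and M level was 26.7 to 37.5 in positive and 15.02 to 21.01 in negative cells, beside 5.92 over cluster 1 and 36.3 over cluster 2. The pooled S phase level was 19.2 in positive and 13.0 in negative cells, beside 6.65 and 21.4 over clusters 1 and 2. Thinned to 5000 UMIs with the groups kept, all 18 genes were above 0, the median was 0.70 and 5 were called. Thinned and regrouped, the median was 0.40 and edgeR called 0 of them (2 at an unadjusted p below 0.05). Within cells of 5000 to 20000 UMIs the median was -0.30, 16 of the 18 were below 0 and edgeR called 0 (1 at an unadjusted p below 0.05, lower), with 16, 16 and 3 positive cells in the libraries. Within cells of 10000 to 40000 UMIs, a range chosen after seeing the data, all 18 were above 0, the median was 0.55 and 7 were called. The direction of the G2 and M genes therefore held after thinning and turned within the shallower range. Thinning evens out the UMIs counted, and the positive cells were the deeper ones before it. Whether the rise stands apart from the depth of the cells was not tested. Of the S phase genes, all 18 were above 0 and 2 were called after thinning with the groups kept, and 15 were above 0 and 1 was called both after thinning with new groups and within 5000 to 20000 UMIs.

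**Figure D4:**
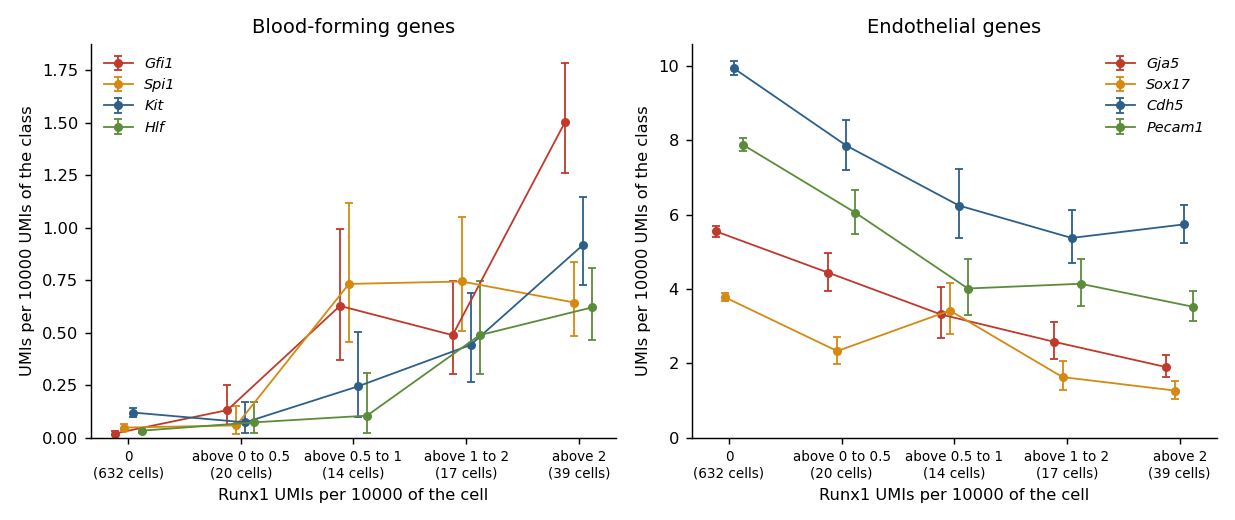
Pooled levels in UMIs per 10000 (vertical axes, from 0) of 4 blood-forming genes (left) and 4 endothelial genes (right) in 5 classes of cells by their Runx1 level, with 95% exact Poisson intervals that cover counting error only. Gfi1 is at 0.0194 in cells without Runx1 and at 1.51 in the highest class, where Gja5 is at 1.90 against 5.55.

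The remaining lists were mixed, and over all tested genes 12.5% were called higher and 12.9% lower. In lists this short a few calls arise at those shares, so the counts are not read as results about a list. Of 11 inflammatory genes Csf1, the macrophage growth factor gene, was higher (1.53 ± 0.27) and Icam1 (-1.38 ± 0.22), Nfkbia, Cxcl1 and Csf3 were lower, and of 7 interferon-stimulated genes 1, Rtp4, was lower, a call that was lost without any 1 of the libraries (edgeR adjusted p 0.052 to 0.20). Glycolysis genes had 3 higher and 3 lower members among 14, with a median of 0.02, and the glucose transporter gene Slc2a1 was at 2.09, 1.49 and 1.97 against 4.83, 3.76 and 4.98 (-1.26 ± 0.10). Of 10 mesenchymal transition genes 2 were higher, Zeb2 (edgeR adjusted p 0.069 without library 1) and Acta2 (0.62 ± 0.12), and 4 were lower, among them Sparc at 9.35, 7.54 and 8.53 against 26.3, 24.5 and 25.8 (-1.57 ± 0.07). Among 12 genes of the fetal programme, Hmga2 (0.62), Lin28b (0.98) and Igf2bp1 (0.37) were higher, of which Lin28b lost its call without library 3 and Igf2bp1 without library 1 or 2, and 6 were lower, including the imprinted genes Igf2 (18.3, 25.1 and 30.3 against 30.3, 42.2 and 45.8), H19 (-0.53), Mest (-0.97) and Cdkn1c (-0.72). Of 11 immediate early genes 3 were higher and 3 lower. Fos was among the higher, at 1.18, 0.743 and 0.202 against 0.439, 0.629 and 0.386, and its ratio of 0.61 turned to -0.06 without library 1. Leaving out 1 library moved several of these counts. Without library 1, glycolysis had 2 higher and 1 lower and immediate early genes 1 higher and 3 lower. Without library 2, inflammatory genes had 2 higher and 2 lower among 9 tested. Without library 3, glycolysis had 1 higher and 2 lower and immediate early genes 4 higher and 2 lower.

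Levels were also read along Runx1 itself, as a description without a test, in classes of 0 (632 cells), above 0 to 0.5 (20), above 0.5 to 1 (14), above 1 to 2 (17) and above 2 Runx1 UMIs per 10000 (39). Pooled Gfi1 was at 0.0194, 0.131, 0.628, 0.488 and 1.51 in these classes, and Mycn at 0.144, 0.538, 0.976, 0.837 and 2.48. Kit was at 0.120, 0.0727, 0.244, 0.442 and 0.920, and Hlf at 0.0331, 0.0727, 0.105, 0.488 and 0.621. All were highest in the class of most Runx1. Spi1 was at 0.0477, 0.0582, 0.732, 0.744 and 0.644, and so was level over the positive classes. Gja5 went from 5.55 through 4.44, 3.31 and 2.58 to 1.90, while Cdh5 was at 9.94, 7.85, 6.24, 5.37 and 5.74. The classes share libraries and differ in depth, and those of 14 and 17 cells are thin.

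Markers of other cell types were followed for the same cells. The summed level of 12 macrophage markers was 0.179 to 1.15 in positive and 0.0696 to 0.244 in negative sums, 9 of the 12 had a higher pooled level in positive cells, some on 1 or 2 UMIs, and Ms4a7 and Fcgr1 were at 0 in positive cells. Against this the list summed to 18.9 over cluster 1 and 25.2 over cluster 5. A macrophage marker UMI was found in 28 positive cells, and 3 or more in 7. Lyz2 alone reached the test (3.20 ± 0.45), and did so only with the positive cells, on 37 UMIs against 25. Megakaryocyte and platelet markers were at 0.336 to 0.648 against 0.209 to 0.326, and 211 in cluster 6. Pf4 was called higher (0.87), a call lost without library 1 (edgeR adjusted p = 0.39) or library 2 (edgeR adjusted p = 0.086). Granulocyte markers were at 0 to 0.111 against 0.0357 to 0.160 with 6 of 10 at 0 in positive cells, erythroid markers at 0.134 to 0.371 against 0.0899 to 0.219, and lymphoid markers at 0.0186 to 0.0896 against 0.150 to 0.218. The endocardial sum was lower, at 11.01 to 12.5 against 18.4 to 19.2, and was mostly the pan-endothelial gene Plvap (pooled 7.42 against 14.1). Of 4 tested endocardial genes 1 was higher, 2 were lower and 1 was not called. Smooth muscle and pericyte markers were at 3.46 to 4.33 against 3.02 to 3.35. Leaving out the cells of 3 or more UMIs over the 55 blood markers together removed a larger share of the positive cells. It left 17 of 28, 17 of 28 and 7 of 14 positive cells in libraries 1, 2 and 3, and 212 of 237, 213 of 253 and 119 of 142 negative cells. Then 9 of 21 tested haemogenic factors and 7 of 13 surface genes were higher, and 19 of 22 arterial and 20 of 23 pan-endothelial genes lower.

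The same split was made in the other endothelial clusters, 2 (94 positive and 5167 negative cells) and 1 (63 and 671), and the contrasts were compared by a test of their difference. Against cluster 2, the contrast differed for 1683 of 13094 genes (12.9%), with the cluster 0 ratio higher for 921 (7.03%) and lower for 762 (5.82%). Depth ran the other way in cluster 2, where the positive cells had medians of 8737 to 17929 UMIs and the negative cells of 14328.5 to 40124. Library 2 held 70 of the 94 positive cells and library 3 held 5. Within cluster 2 itself 1.31% of 12864 genes were called higher and 0.365% lower. Leaving out library 1 or 2 gave 422 or 450 higher genes. With every cell thinned to 5000 UMIs and the groups kept, 84 genes had a higher and 94 a lower ratio in cluster 0.

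Endothelial genes differed from cluster 2. The cluster 0 ratio was lower for 18 of 22 arterial and 19 of 23 pan-endothelial genes and not shown to differ for the rest. Gja5 fell in cluster 0 and was at 0.242 in positive and 0.0581 in negative cells of cluster 2, a difference of contrasts of -3.07 ± 0.36 (edgeR, adjusted p = 4.3e-15), which was not called without library 2 (-1.78, edgeR adjusted p = 0.19) or after thinning with the groups kept (-2.02, edgeR adjusted p = 0.17). Pecam1 was at 3.43 and 3.30 in cluster 2 (difference -0.98 ± 0.15, and -1.12 after that thinning, edgeR adjusted p = 0.0085). Kit, at 0.310 and 0.215 there, differed by 2.15 ± 0.35, and Mycn, at 0.818 and 0.440, by 2.82 ± 0.23. The ratio of Gfi1 was not shown to differ, at 0.136 against 0.000892 in cluster 2 (-0.84 ± 0.81, edgeR adjusted p = 0.61), nor that of Spi1 (0.25 ± 0.68, edgeR adjusted p = 0.89) or Hlf (2.04 ± 0.94, edgeR adjusted p = 0.15). The intervals of these differences are wide. All 18 G2 and M genes and 14 of 17 ribosome genes had a higher ratio in cluster 0 at the deposited depth, and after thinning with the groups kept Top2a was still called (1.26) and Mki67 was not (1.09, edgeR adjusted p = 0.079).

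Against cluster 1, 174 of 11263 genes had a higher ratio in cluster 0 (1.54%) and 387 a lower one (3.44%), or 4.98% in either direction, and within cluster 1 itself 5.07% were called higher and 3.22% lower. Positive cells of cluster 1 were the deeper group, as in cluster 0, with medians of 11576 to 13666 UMIs against 7329 to 8296. Kit was at 0.436 in positive and 1.21 in negative cells of cluster 1, and the contrasts differed by 3.79 ± 0.33 (edgeR, adjusted p = 1.1e-05), and Adgrg1 (0.291 against 0.723) differed by 4.07 ± 0.32. Ptprc was at 1.15 in positive cells of cluster 1 and at 0.0189 in those of cluster 0, a difference of -4.19 ± 1.03 that passed with all 3 libraries (edgeR, adjusted p = 0.031) and not with any 1 of them left out (edgeR adjusted p 0.081 to 0.21). The ratios of 11 macrophage markers had a median of 5.02 in cluster 1 and of 1.71 in cluster 0, and their part in these differences was not tested. Of 22 arterial genes 2 differed in each direction, and of 23 pan-endothelial genes 3 had a higher ratio in cluster 0.

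**Figure D5:**
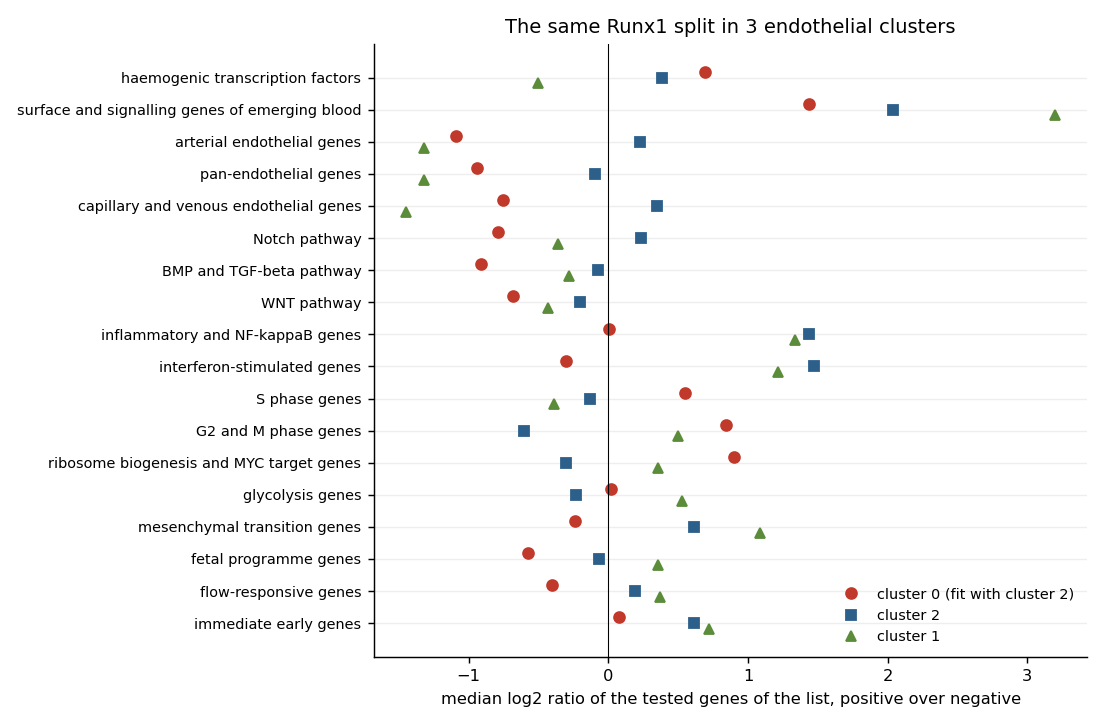
Median log2 ratio of Runx1-positive to Runx1-negative cells over the tested genes of each list in cluster 0 (red circles, from the fit with cluster 2), cluster 2 (blue squares) and cluster 1 (green triangles). The arterial median is -1.09 in cluster 0, 0.22 in cluster 2 and -1.32 in cluster 1, and the G2 and M median is 0.84, -0.61 and 0.50 in the same order.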

How the data were processed

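Transcripts were measured by droplet single-cell RNA-seq (10x Genomics) in endothelial cells pooled over culture times. The mouse line is not reported here. The authors mapped the reads to mm10 (GRCm38) and deposited UMI counts of 27998 genes in 9562 cells with cluster numbers. Cell Ranger 3.1.0, with which libraries were joined and batch effects removed, and Seurat 3.1.5, whose role is not given in the sources used here, stand in the submitters' processing notes. Cluster numbers were taken from the authors, and their second table of processed values was not used here. Gene names and positions are those of a GRCm38 annotation. The members and gene lists were chosen with earlier results of these data known.

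Raw counts were summed per library suffix and group, and genes with at least 50 UMIs over the 6 sums were tested by edgeR 4.0.16 in R 4.3.3 (quasi-likelihood, TMM, library as a block, Benjamini-Hochberg over all genes tested, adjusted p 0.05). Both groups of a library come from the same capture, and their deviations from the group means correlated at 0.288, 0.443 and 0.152 over 4049 genes. Differences between clusters were interaction terms over 12 sums with a block for each library and cluster. Scripts were tested on simulated counts. The study kept singlets, and no further doublet step was run.

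Named genes were Runx1, Gfi1, Spi1, Kit, Hlf, the list members, and the 15 genes with the largest fitted ratio in each direction among those called, changed alike in 3 libraries and at 0.5 or more per 10000 in the higher group. For a difference between clusters, 5 genes were named in each direction. Alternatives were no TMM factor, DESeq2 1.42.0, other count filters, no block, each library left out, other Runx1 limits, cells thinned to 5000 UMIs and grouped again, cells of 5000 to 20000 UMIs and cells with under 3 blood-marker UMIs, and 3 chosen after seeing the data, cells without Ptprc, cells of 10000 to 40000 UMIs and cells thinned with the groups kept.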

Additional observations from a re-analysis of the deposited data

Results flagged for a closer look

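All results here were singled out because the Runx1 contrast, the log2 ratio of Runx1-positive to Runx1-negative cells, differed between cluster 0 and another endothelial cluster in a test of the difference itself (edgeR interaction term). A positive difference means a higher ratio in cluster 0.

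Against cluster 2, genes that rose in cluster 0 had larger ratios there. The differences were 2.99 for Sfrp2, 2.98 for Phgdh, 2.82 for Mycn, 2.16 for the linker histone gene Hist1h1a, 2.15 for Kit, 1.88 for Neurl3 and 1.78 for Itga4. The calls of Neurl3 and Itga4 were lost without library 2 (edgeR adjusted p 0.68 and 0.079). The cycle genes Mki67 and Top2a differed by 1.64 and 1.54, and depth ran in opposite directions in the clusters, with positive cells deeper in cluster 0 and shallower in cluster 2. Endothelial genes differed the other way, by -3.07 for Gja5, -1.26 for Kdr, -1.22 for Sox17, -0.98 for Pecam1 and -0.58 for Cdh5, the last not called without library 1 or 2 (edgeR adjusted p 0.19 and 0.079). Negative differences were also found at -5.26 for P4ha3, -4.72 for Htra1, -4.72 for Fbln5 and -4.13 for Gadd45b, and P4ha3 and Fbln5 changed sign without library 2. Apod, the gene of a secreted lipid carrier, had 0 UMIs in the positive cells of cluster 0 and was at 1.01 per 10000 in those of cluster 2 against 0.0369 in its negative cells (edgeR, adjusted p = 1.3e-14). With each cell thinned to 5000 UMIs and the groups kept, an alternative chosen after seeing the data, 11 of these 19 genes were still called. Those lost were Hist1h1a (0.72, edgeR adjusted p = 0.78), Neurl3 (0.096), Itga4 (0.096), Mki67 (0.079), Gja5 (0.17), Cdh5 (0.63), Htra1 (0.20) and Fbln5 (0.17). Thinned and grouped again by the Runx1 UMIs left, 6 of the 19 were called, namely Sfrp2, Phgdh, Mycn, Kit, Kdr and Gadd45b.

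Against cluster 1, the differences were 10.05 for the globin gene Hbb-bs, 5.62 for Igfbp5, 4.205 for Fmo1, 4.07 for Adgrg1, 3.93 for Phgdh, 3.79 for Kit, 3.22 for Mycn, 2.26 for Neurl3 and 1.36 for Sox17. Hbb-bs was at 3.67 per 10000 in the negative and 0.0104 in the positive cells of cluster 1. Fmo1 was not called without library 3 (edgeR adjusted p = 0.12), nor Phgdh and Sox17 without library 1 (edgeR adjusted p 0.097 and 0.070). Ptprc differed by -4.19, a call lost without any 1 of the libraries and given as a description with no p. The genes Csf3, Lrp1, Mpeg1, Ptges and Slpi had 0 UMIs in the positive cells of cluster 0 and were at 7.75, 0.696, 2.81, 8.502 and 3.73 per 10000 in those of cluster 1, with edgeR adjusted p-values of 0.0054, 0.0098, 0.045, 0.019 and 0.047. All 5 of these calls were lost with at least 1 library left out. After thinning with the groups kept, 9 of 14 genes with a value were called, and Sox17 (edgeR adjusted p = 0.19), Ptprc (0.20), Csf3 (0.069), Mpeg1 (0.54) and Slpi (1.0) were not. After thinning and regrouping 7 of 14 were called, and Phgdh (0.12) and Neurl3 (0.22) were lost as well.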

How the results depend on the processing

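The contrast was repeated under 16 other settings, and 2573 calls were followed. With no TMM factor, no filter on low counts, edgeR's own filter (filterByExpr), no replicate block, or positive cells set at any Runx1 UMI or above 1 per 10000, the numbers of genes higher and lower stayed within 1.5 times 1269 and 1304. Both groups of a library come from 1 capture, so the paired fit is the reported one. Without the replicate block, edgeR called 981 genes higher and 1107 lower, 2073 of these 2088 were among the reported calls, and the WNT list went from 6 to 4 lower genes, the inflammatory and mesenchymal lists each from 4 to 2 lower and the glycolysis list from 3 to 1 higher, while the count of each other list in either direction moved by at most 1. Leaving out 1 library gave 903 to 976 genes higher and 970 to 1051 lower, 9 to 16 S phase genes, 9 to 12 haemogenic factors, 21 to 22 arterial, 22 to 23 pan-endothelial, 16 to 18 G2 and M and 14 to 15 ribosome genes, and 10 surface genes each time. DESeq2 called 571 higher and 564 lower, all of them among edgeR's calls, and 7 S phase genes.

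Settings that thin cells or limit their depth gave the fewest calls. Thinned to 5000 UMIs per cell with the groups kept, chosen after seeing the data, 346 genes were higher and 443 lower, of which 755 were reported calls, 2261 of 2297 reported calls with a value kept their direction, and 5 haemogenic factors, 2 S phase genes and 5 G2 and M genes were higher. Thinned and grouped again by the Runx1 UMIs left, with 20, 20 and 9 positive cells in libraries 1, 2 and 3, so that both depth and groups changed, 123 genes were higher and 272 lower, of which 381 were reported calls, and 2224 of 2312 reported calls with a value kept their direction. The lists then held 4 haemogenic factors, 6 surface genes, 1 S phase gene, 0 G2 and M genes and 8 ribosome genes called higher and 12 arterial genes called lower. Within cells of 5000 to 20000 UMIs, which left 35 positive cells, 83 genes were higher and 125 lower, with 6 haemogenic factors, 1 S phase gene, 0 G2 and M genes and 4 ribosome genes higher and 5 arterial and 0 pan-endothelial genes lower. Leaving out the cells of 3 or more blood-marker UMIs left 17, 17 and 7 positive cells in libraries 1, 2 and 3. Then 534 genes were higher and 709 lower, with 7 S phase and 9 ribosome genes higher. Within 10000 to 40000 UMIs, chosen after seeing the data, 695 were higher and 815 lower, with 7 S phase and 7 G2 and M genes. The share of Runx1-positive cells was 12.5% with any UMI and 6.79% after thinning and regrouping, beside 9.70%. Fewer reads or cells enter these settings by construction.

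Some log2 ratios of single genes changed sign. Within cells of 5000 to 20000 UMIs these were Mecom (0.010), Fzd4 (0.11), Rrm1 (-0.17), Tyms (-0.18), Rpa2 (-0.0043), Mki67 (-0.55), Top2a (-0.24), Cdk1 (-0.079), Ccnb1 (-0.30), Ccnb2 (-0.19), Aurka (-1.40), Aurkb (-0.60), Bub1 (-0.12), Plk1 (-0.68), Ube2c (-0.43), Cenpe (-0.14), Cenpf (-0.51), Birc5 (-0.011), Kif11 (-0.42), Cdc20 (-0.30), Hmmr (-0.36) and Gapdh (-0.17). After thinning and regrouping these were Mcm2 (-0.22), Rrm1 (-0.038), Rpa2 (-0.27) and Fos (-0.17). Fos was also between -0.064 and 0.89 with 1 library left out, -0.37 with positive cells above 1 Runx1 UMI per 10000 and -0.20 without cells with a Ptprc UMI, and Pf4 at -0.12 with that higher limit and -0.21 without blood-marker cells. Pf4 is itself among the blood markers by which those cells were left out, so that setting lowers it in part by construction. The cause of the other changes was not tested.

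Of the differences between clusters, those from cluster 2 numbered 422 to 721 higher and 424 to 669 lower with 1 library left out, 84 higher and 94 lower after thinning with the groups kept, and 27 and 62 after thinning and regrouping. Without library 2, which held most positive cells of cluster 2, the difference turned to 1.46 for Fbln5 (range with 1 library left out -4.79 to 1.46) and 2.70 for P4ha3 (-6.95 to 2.70). Those from cluster 1 numbered 38 to 154 higher and 126 to 302 lower with 1 library left out, 33 and 106 after thinning with the groups kept, 40 and 93 after thinning and regrouping, and 292 and 599 with no filter on low counts. No fit without the block was run for these differences. Genes near the limit of 50 UMIs, such as Myb and Was, rest on few molecules.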

Other observations

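Some further genes were chosen after their values were seen. Hoxa9, a homeobox gene of haematopoietic stem and progenitor cells, was at 0.964, 1.32 and 1.57 UMIs per 10000 in the Runx1-positive sums of libraries 1, 2 and 3 and at 0.390, 0.441 and 0.325 in the negative sums, which did not overlap (log2 ratio 1.73 ± 0.16, edgeR adjusted p = 1.1e-10). Its neighbour Hoxa7 was at 0.415, 0.520 and 0.560 against 0.250, 0.207 and 0.186 (1.22 ± 0.23). Meis1, whose protein pairs with HOXA9, was higher by 1.39.

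Beside Phgdh, Psat1, the next enzyme of serine synthesis, was at 0.365, 0.427 and 0.425 against 0.225, 0.232 and 0.165 (0.98 ± 0.24), and Psph, the last, at 0.299, 0.223 and 0.291 against 0.132, 0.160 and 0.145 (0.92 ± 0.30). Psph was not called without library 1 or 3 (edgeR adjusted p 0.16 and 0.083). The downstream folate enzymes did not pass, with Shmt2 at 0.60 ± 0.24 (edgeR adjusted p = 0.064) and Mthfd2 at 0.30 ± 0.34 (edgeR adjusted p = 0.57).

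Kitl, the gene of the KIT ligand, was at 0.316, 0.111 and 0.0896 in positive and 0.931, 0.811 and 0.949 in negative cells (-2.28 ± 0.24), while its receptor gene Kit was higher. Angpt1, the ligand of TEK, was at 0.299, 0.520 and 0.134 against 0.0275, 0.0313 and 0.0290 (3.39 ± 0.40, a description, since it reached the test only with the UMIs of the positive cells). Cav1, the gene of the caveolar coat protein of endothelium, was at 0.150, 0.520 and 0.157 against 1.39, 1.16 and 1.38 (-2.21 ± 0.23). The cyclin gene Ccnd2 was at 2.44, 3.01 and 3.13 against 1.35, 1.51 and 1.72 (0.93 ± 0.10).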
